A study of Mus musculus with 14 samples.

Results

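The genes described here are 36 interferon-stimulated genes and RNA sensors, followed in mSCC-38 cells, which come from a mouse squamous cell carcinoma of the skin raised with the carcinogen DMBA and the promoter TPA. They were chosen by gene name from the 34836 gene names on a 1-colour Agilent array: every non-control probe carrying a member's name was taken, and the brightest probe stood for the gene. All 36 were on the array, and 33 of them passed the filter on dim probes, among 21300 genes tested. The study transfected the cells with Si1AK or Si2AK, a pair of siRNAs directed at the transcript AK144841, or with the control siRNA SiC, each carried by the lipid reagent RNAimax for 72 h. Non-transfected cells (NT), for which the labels give no time, were the other baseline. NT and Si1AK had 4 samples each, SiC and Si2AK 3 each, and every sample was hybridised to 1 array, on 2 slides in all. Slide 1 held 1 SiC array and slide 2 held 1 Si2AK array, so each comparison of those groups within a slide has 1 array on a side. All groups share the same cell line, and the labels do not say whether the replicates were separate cultures, so each p-value reflects the scatter among these arrays alone, and that scatter may be technical. AK144841 itself was not analysed here, so the extent of the knockdown was not checked.

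Cells detect viral or other unusual RNA through sensors such as RIG-I, MDA5, TLR3 and PKR, which signal to the interferon genes. Secreted type I and type III interferons bind receptors on the same and neighbouring cells and activate a transcription factor complex that includes STAT2 and IRF9 and binds the interferon-stimulated response element in the promoters of effector genes. Many of the sensors are themselves induced in this way, and keratinocytes, the cells from which skin carcinomas arise, carry both the sensing and the response arm. The comparison of SiC with NT asks what transfection with a control siRNA did to these genes, and setting Si1AK and Si2AK against SiC asks what each siRNA did beyond that.

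The response element was looked for in the RefSeq promoter windows of the members (mouse build GRCm38.p6, 250 bases before to 50 after the annotated start), to show which members carry its core letters. A window was found for 28 of the 36. The core was spelled GAAANNGAAA, or TTTCNNTTTC on the other strand, and it stood in 11 of those 28 members (39.3%), against 3.99% of the 27025 genes with a window and 3.55% of the 10801 such genes tested on the arrays. The members were picked as interferon-stimulated genes, so this share describes the choice. Among members with a window it was present in 5 of 11 that were called in any of the 6 comparisons and in 5 of 14 that were tested and not called. A match of letters is a description and no evidence of binding. The promoters below are shown because their genes changed in at least 1 comparison: the core is written in capitals, from 150 bases before to 20 after the start, in the direction of the gene. Isg15 has 3 overlapping cores, Ifit1 has 2 and Gbp3 has 2 that overlap, Ddx58 has a core just downstream of its start, and Psmb9 has none in this window.
Isg15, chr4:156200799-156200968, minus strand: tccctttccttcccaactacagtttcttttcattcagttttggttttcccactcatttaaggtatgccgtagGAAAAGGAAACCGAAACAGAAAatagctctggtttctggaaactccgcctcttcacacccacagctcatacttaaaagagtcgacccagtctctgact
Ifit1, chr19:34640739-34640908, plus strand: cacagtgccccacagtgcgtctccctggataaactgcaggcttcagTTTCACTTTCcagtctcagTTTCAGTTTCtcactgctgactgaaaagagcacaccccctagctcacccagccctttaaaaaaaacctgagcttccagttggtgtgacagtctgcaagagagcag
Gbp3, chr3:142559894-142560063, plus strand: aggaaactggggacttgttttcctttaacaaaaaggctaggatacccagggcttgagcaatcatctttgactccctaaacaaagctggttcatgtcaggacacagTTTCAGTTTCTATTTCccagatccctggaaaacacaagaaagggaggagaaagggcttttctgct
Ddx58, chr4:40239806-40239975, minus strand: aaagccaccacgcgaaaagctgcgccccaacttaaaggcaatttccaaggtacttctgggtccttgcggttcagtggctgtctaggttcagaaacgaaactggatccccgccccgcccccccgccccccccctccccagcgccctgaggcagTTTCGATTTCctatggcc
Psmb9, chr17:34187311-34187480, minus strand: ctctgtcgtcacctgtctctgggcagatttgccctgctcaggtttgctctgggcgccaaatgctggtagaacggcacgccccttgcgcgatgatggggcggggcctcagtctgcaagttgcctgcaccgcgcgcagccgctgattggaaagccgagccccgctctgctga
Psmb9 and Tap1 lie back to back, and their windows overlap by 275 bases, so the Psmb9 sequence is also upstream of Tap1. Cores were also found in Ifit3, Ifih1, Stat2, Bst2, Rsad2, Eif2ak2 and Gbp2. The gamma-activated sequence, an element of the response to interferon gamma, was added after the data had been seen. Its core TTCNNNGAA, which reads the same on both strands, stood in 6 of the 28 members (21.4%) and in 9.55% of all genes with a window. It was present in 1 of 11 members called in any comparison and in 5 of 14 tested and not called.

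Levels below are log2 of the processed signal relative to the 75th percentile of each array, and differences are differences of group means on that log2 scale with the standard error (SE) of limma. A gene was called at a Benjamini-Hochberg adjusted p below 0.05 over all 21300 genes. "Rose" and "fell" are used only of called genes. A level cannot be compared between genes, because each probe has its own response, and in these bulk samples fewer cells of a type and less RNA per cell cannot be told apart. The arrays that stood apart were SiC replicate 1, with a median processed signal of 270.9 and 90.5% of spots well above background, and Si2AK replicate 2, with 107.5 and 84.9%. On the other 12 arrays these values were 23.5 to 58.7 and 52.7% to 60.1%. SiC replicate 1 was the highest of all arrays for 13 of the 33 members. It was highest for 9 of the 13 members with a mean level below -2 and for 4 of the other 20, and for 30.1% of all genes tested. No probe was saturated.

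The labelled cell type was checked by its markers. Of 14 keratinocyte markers, 11 were well above background on all 14 arrays, but the adhesion gene Cdh1 was so on only 2 arrays and Dsg3 on 8. Their summed level was 1100 to 1284 in NT, 838 to 1076 in SiC, 911 to 1026 in Si1AK and 1157 to 1206 in Si2AK. Of 13 leukocyte markers, 7 were well above background on all arrays, while Lyz2 and Laptm5 were so on 2 each and Ptprc on 3. Summed over the list, as linear signal relative to the 75th percentile, leukocyte markers were between 15.5 and 18.2 in NT, 14.2 and 19.6 in SiC, 16.6 and 18.5 in Si1AK and 14.3 and 15.3 in Si2AK. All 4 genes listed for plasmacytoid dendritic cells, a main interferon-producing cell type, were well above background on every array (Siglech, Tcf4, Irf8 and Ly6d). Their sums were 88.2 or more on every NT array, 92.4 to 102 in SiC, 72.5 to 80.3 in Si1AK and 67.4 to 80.7 in Si2AK. The group means of Irf8 lay between -2.08 and -1.30 on the log2 scale, so these sums came mostly from the other listed genes. Such sums do not show that these cells were present. Sums of 7 fibroblast markers were 0.83 to 1.07 in NT, 1.02 to 1.58 in SiC, 1.06 to 1.56 in Si1AK and 1.56 to 1.99 in Si2AK, with 3 of the 7 well above background on all arrays and Lum on 2. Of 5 endothelial markers, 3 were well above background on every array and Tek on 2, and their sums were 8.88 to 13.2 in NT, 8.09 to 9.59 in SiC, 7.9 to 9.4 in Si1AK and 8.82 to 11.4 in Si2AK. The 5 melanocyte markers summed to 2.05 to 2.37 in NT, 2.34 to 2.64 in SiC, 2.12 to 2.54 in Si1AK and 3.87 to 4.16 in Si2AK, with 3 of the 5 well above background on all arrays and Dct on 2. The part of these markers in the results below was not tested.

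Transfection with the control siRNA gave no called change. In SiC against NT, 0 of 33 members and 0 of 21300 genes passed (0%) by limma, and an unadjusted p under 0.05 was reached by 5 members, or by 7.43% of all genes. Those 5 were Ifit1, Gbp3, Rtp4, Psmb8 and Isg15, and all 5 had a higher mean in SiC. The median difference of the members was 0.23, against -0.0088 over all genes, with 24 of 33 above 0. That median was 0.092 without SiC replicate 1, 0.33 within slide 1, where that array is the only SiC sample, and 0.11 within slide 2. It was 0.016 after quantile normalization.

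Ifit1, whose product binds viral RNA that lacks the methylation of the host cap, had the largest difference of the members between SiC and NT. The arrays read -3.99, -4.45, -3.83 and -3.75 in NT, -2.54, -3.10 and -3.08 in SiC, -2.60, -2.85, -3.22 and -2.92 in Si1AK and -2.22, -2.15 and -1.88 in Si2AK. Every transfected array lay above every NT array, and the SiC and Si1AK arrays overlapped. The difference between SiC and NT was 1.10 ± 0.20 (SE, adjusted p = 0.523). The SiC arrays of Gbp3 and Gbp2, GTPases that attack the vacuoles of intracellular microbes, also lay wholly above the NT arrays, which makes 3 members with separate groups in that direction, against a background of 1.68% of all genes. No member had SiC wholly below NT, which 4.33% of all genes did.

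The SiC arrays differed from each other among the dim members, those with a mean level below -2. For 12 of the 13 dim members SiC replicate 1 was above the NT mean, with a median excess of 1.55 and a highest value of 3.44. SiC replicates 2 and 3 had median excesses of 0.014 and 0.045 over the same 13 genes. Among the brighter members SiC replicates 2 and 3 were above the NT mean for 18 and 17 of 20, by medians of 0.11 and 0.15, and SiC replicate 1 for 8 of 19, by a median of -0.068. Ifi35 had no value on SiC replicate 1, where its spot was marked as an outlier and left out, so its SiC mean rests on 2 arrays.

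**Figure D1:**
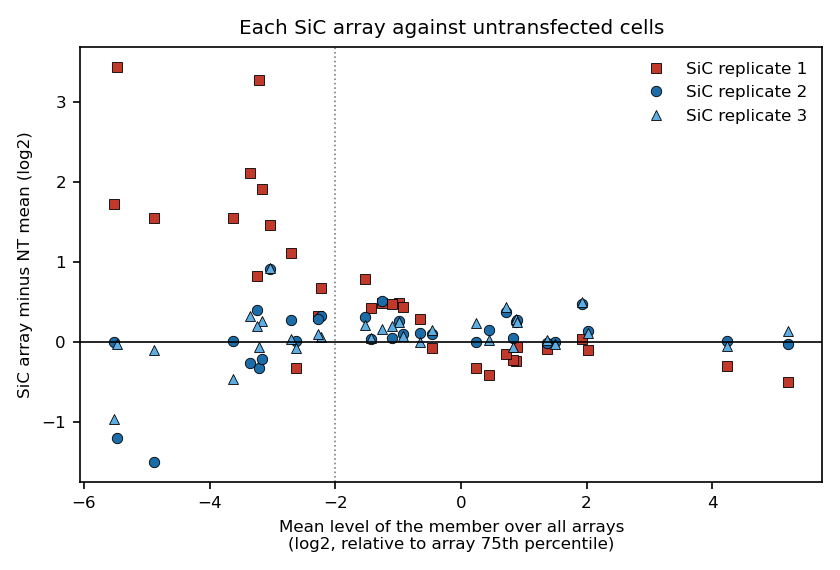
Level of each of the 33 tested members on each SiC array minus the NT mean (vertical axis, log2), against the mean level of the member over all 14 arrays (horizontal axis, log2 relative to the 75th percentile), with a dotted line at -2. SiC replicate 1 (squares) lies up to 3.44 above the NT mean left of the line, where the other SiC arrays have medians of 0.014 and 0.045.

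The siRNAs were then set against SiC. In Si1AK, 3 of 33 members were called, Ddx58 and Zbp1 higher and Parp9 lower, against 4.4% of all genes (3.18% higher and 1.22% lower). In Si2AK, 6 of 33 were called, Isg15, Ifit1 and Trim25 higher and Mx1, Psmb9 and Gbp3 lower, against 13.2% of all genes (8.54% higher and 4.68% lower). The median difference of the members was 0.044 in Si1AK, against -0.060 over all genes, and -0.20 in Si2AK, against -0.019. Usp18, Tlr3 and Ifit3, which passed the filter only through Si1AK, enter the member medians. Without SiC replicate 1 these member medians were 0.14 and -0.043. Within slide 1, where that array is the only SiC sample, they were -0.087 and -0.49, and within slide 2 they were 0.10 and -0.10. With 1 array left out the Si1AK count was 0 without SiC replicate 3 or Si1AK replicates 1, 2 or 4, and 1 without NT replicates 1 or 4, SiC replicates 1 or 2, Si1AK replicate 3 or Si2AK replicate 3, while the Si2AK count stayed between 4 and 7. Counted without a test, Si1AK arrays lay wholly above SiC for 3 members (10.7% of all genes) and wholly below for 2 (8.88%), Parp9 and Herc6. Si2AK arrays lay wholly above SiC for 4 (16.5%) and wholly below for 5 (9.33%). Both comparisons use the same SiC arrays, so the direct comparison of Si2AK with Si1AK is the one that tests whether the siRNAs differed.

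**Figure D2:**
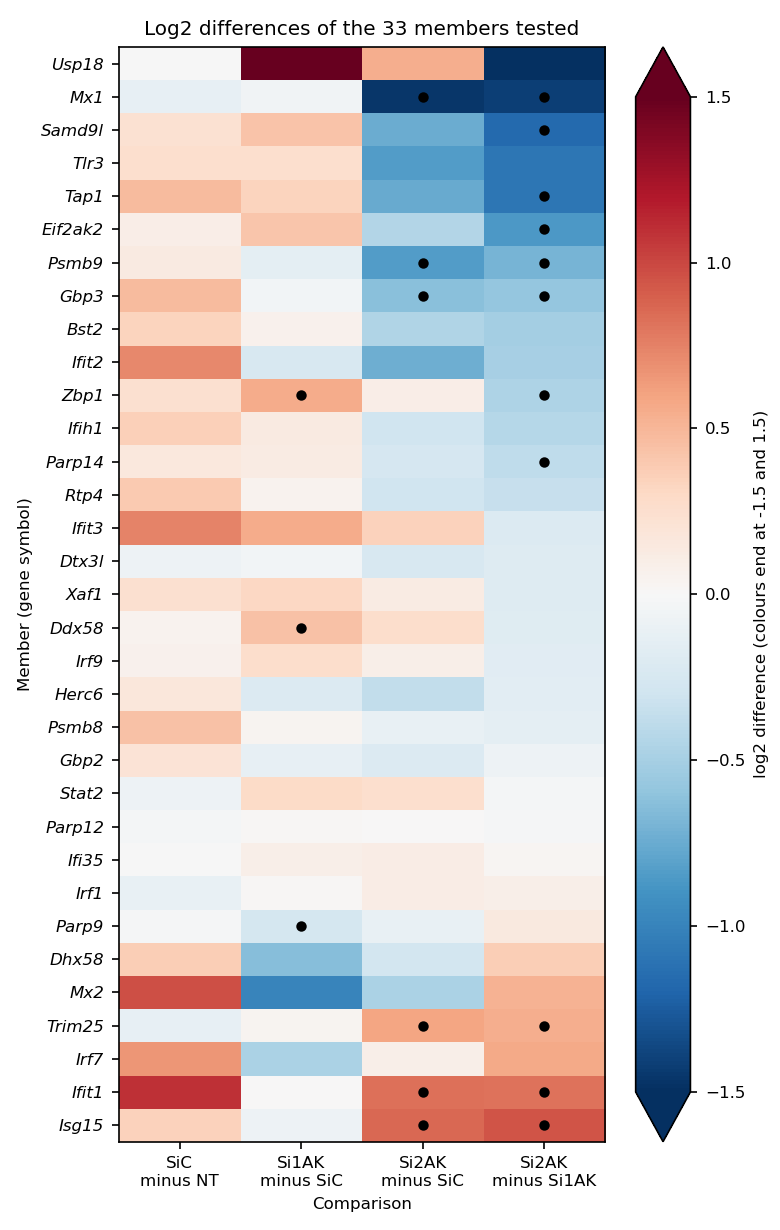
Log2 difference of each of the 33 tested members (rows, ordered by the last column) in 4 comparisons (columns), red for higher and blue for lower, with a black dot where the adjusted p was below 0.05. No member is called in SiC minus NT, and the calls are 3 in Si1AK minus SiC, 6 in Si2AK minus SiC and 11 in Si2AK minus Si1AK.

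In that direct comparison 11 of 33 members were called, against 12.5% of all genes. Isg15, Ifit1 and Trim25 were higher in Si2AK (3 members, background 6.33%). Mx1, Zbp1, Eif2ak2, Parp14, Samd9l, Psmb9, Tap1 and Gbp3 were lower (8 members, background 6.15%). The members were chosen with earlier results of these data known, so an excess over the background may reflect the choice. The median of the members was -0.19, against 0.096 over all genes, and 9 of 33 members were above 0, against 63.1% of all genes. It was -0.14 within slide 1 and -0.25 within slide 2. Si2AK arrays lay wholly below Si1AK for 13 members (12% of all genes) and wholly above for 4 (17.4%). The 13 include Usp18 and Tlr3, which passed the filter on dim probes only through Si1AK and so had to be high there. With 1 array left out the count ranged from 5 to 11. It was 5 without Si1AK replicate 3, Si2AK replicate 1 or Si2AK replicate 2, 6 without Si1AK replicate 1 or Si2AK replicate 3, and 7 without Si1AK replicate 2.

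Among the sensors, Ddx58 encodes RIG-I, the helicase that recognises short double-stranded RNA with a free triphosphate end. Its probe lies at chr4:40151893-40151952 (mm9, as for all probe positions here). It measured 1.93, 1.78, 1.72 and 1.80 in NT, 1.72, 1.95 and 1.92 in SiC, 2.3, 2.49, 2.14 and 2.27 in Si1AK and 2.22, 2.05 and 2.11 in Si2AK. All Si1AK and Si2AK arrays lay above all SiC and NT arrays, and those of Si1AK and Si2AK overlapped. Ddx58 rose in Si1AK against SiC by 0.44 ± 0.098 (SE, adjusted p = 0.0271), and its difference in Si2AK against SiC was 0.27 ± 0.10 (SE, adjusted p = 0.128). Against NT it was called in both, with 0.49 ± 0.09 (SE, adjusted p = 0.00683) in Si1AK and 0.32 ± 0.098 (SE, adjusted p = 0.047) in Si2AK. The Si1AK call against SiC was lost without SiC replicate 1 (0.37, adjusted p = 0.0774). It was also lost without SiC replicate 3 or Si1AK replicates 1, 2 or 4 (0.38 to 0.47, adjusted p between 0.0512 and 0.0784). Within slides the difference was 0.68 on slide 1, with 1 SiC array, and 0.27 on slide 2, where it was not called (adjusted p = 0.301). A dimmer Ddx58 probe gave -0.13 ± 0.25 (SE, adjusted p = 0.772 over all probes kept), the opposite sign, and with the probes averaged the difference was 0.15 (adjusted p = 0.51).

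Zbp1, a sensor of left-handed double-stranded nucleic acid that can start necroptosis, rose in Si1AK. Levels were -2.67, -2.42, -2.87 and -2.57 in NT, -2.31, -2.34 and -2.53 in SiC, -1.95, -1.61, -2.0 and -1.77 in Si1AK and -2.50, -2.09 and -2.3 in Si2AK. The 4 Si1AK arrays lay above all others, and the other groups overlapped. Zbp1 differed by 0.56 ± 0.14 (SE, adjusted p = 0.0415) between Si1AK and SiC, by 0.80 ± 0.13 (SE, adjusted p = 0.00343) between Si1AK and NT, and by -0.47 ± 0.14 (SE, adjusted p = 0.0455) between Si2AK and Si1AK. The call against SiC was lost when any of the 3 SiC or 4 Si1AK arrays, NT replicates 1 or 4 or Si2AK replicate 3 was left out (0.49 to 0.62, adjusted p between 0.0513 and 0.126). The call against Si1AK was lost without NT replicates 1 or 4, SiC replicates 2 or 3, any Si1AK array or Si2AK replicates 1 or 3 (-0.52 to -0.37, adjusted p between 0.0521 and 0.18). The call against SiC was also lost after quantile normalization (1.54, adjusted p = 0.135) and in the authors' deposited table (1.0, adjusted p = 0.065). So were, in that order, the call against NT (0.91 and 0.70, adjusted p = 0.352 and 0.139) and that between the siRNAs (-0.66 and -0.47, adjusted p = 0.509 and 0.348). With normexp background correction the calls against SiC and between the siRNAs were lost (0.41 and -0.33, adjusted p = 0.0619 and 0.0859). A dimmer Zbp1 probe, well above background on 8 of 14 arrays, gave -0.68 ± 1.17 (SE, adjusted p = 0.75 over all probes kept). Averaging both probes turned the sign of Si1AK against SiC (-0.058) and of Si2AK against Si1AK (0.063). Si1AK against NT was then 0.52 and not called (adjusted p = 0.672).

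Eif2ak2 encodes PKR, the kinase that stops translation on binding double-stranded RNA. Its levels were 0.49, 0.64, 1.16 and 0.83 in NT, 0.54, 1.03 and 1.08 in SiC, 1.39, 0.96, 1.43 and 1.44 in Si1AK and 0.64, -0.16 and 0.86 in Si2AK. Si1AK lay above Si2AK without overlap, while SiC overlapped both. Eif2ak2 was lower in Si2AK than in Si1AK, with a difference of -0.86 ± 0.25 (SE, adjusted p = 0.0411), and no call was made for either siRNA against SiC (0.42 and -0.44). Without Si2AK replicate 2, the lowest array and also an array of raised signal, the difference between the siRNAs was -0.56 (adjusted p = 0.165). It was also lost without NT replicates 2 or 4, SiC replicates 2 or 3, Si1AK replicates 1, 3 or 4 or Si2AK replicate 1 (-0.96 to -0.82, adjusted p between 0.0508 and 0.102).

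Ifih1 (MDA5, the sensor of long double-stranded RNA), Dhx58 (LGP2, a helicase that modulates RIG-I and MDA5) and Tlr3 (the endosomal receptor of double-stranded RNA) were called in none of the 6 comparisons. Ifih1 was between -2.80 and -1.78 over all arrays, and its Si2AK arrays lay below its Si1AK arrays with a difference of -0.43 ± 0.17 (SE, adjusted p = 0.139). Tlr3 was well above background on 6 of 14 arrays: on all 4 of Si1AK, 1 of SiC, 1 of NT and none of Si2AK. Tlr3 therefore passed the filter only through Si1AK, so a high level there was a condition of its being tested. Its levels are given as a description. The Si1AK mean was at least 1.59-fold above the Si2AK mean, and the difference was not called (adjusted p = 0.286). That bound was taken against the lowest signal well above background or the probe's own signal, whichever was higher.

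Of the transcription factors, Irf1, Irf7, Irf9 and Stat2 were not called against SiC in either siRNA. Irf9, a DNA-binding part of the complex with STAT2, rose in Si1AK against NT by 0.32 ± 0.085 (SE, adjusted p = 0.0444), a call lost when any of 11 of the 14 arrays was left out (0.28 to 0.36, adjusted p between 0.0543 and 0.136). Its Si1AK arrays, between -0.39 and -0.17, also lay above the SiC arrays, between -0.66 and -0.44, with 0.26 ± 0.091 (SE, adjusted p = 0.148). Stat2 was between -0.04 and 0.69 on all arrays, and Irf1, the factor induced first by interferon gamma, between 3.98 and 4.41. Irf7, which amplifies the type I response, was between -3.88 and -1.60, with SiC replicate 1 the highest.

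Isg15, a ubiquitin-like protein joined to other proteins during the response, rose with Si2AK. Its probe lies at chr4:155573649-155573708, and its promoter, printed above, holds 3 response element cores. The arrays read 1.5, 1.64, 1.78 and 1.19 in NT, 1.57, 2.01 and 2.03 in SiC, 1.67, 1.88, 1.68 and 1.92 in Si1AK and 2.75, 2.71 and 2.74 in Si2AK. The 3 Si2AK arrays lay close together and above all other arrays, while NT, SiC and Si1AK overlapped. Isg15 in Si2AK was 1.82 times SiC, a difference of 0.86 ± 0.16 (SE, adjusted p = 0.00447), and the difference from Si1AK was 0.94 ± 0.15 (SE, adjusted p = 0.00153). In Si1AK against SiC it was -0.079 ± 0.15 (SE, adjusted p = 0.779). No single array left out ended the Si2AK calls. On slide 1 the difference from SiC was 1.16 and on slide 2 it was 0.72 (adjusted p = 0.249), and it was not called when only the compared groups entered the fit (adjusted p = 0.0932). A dimmer Isg15 probe gave 0.58 ± 0.28 (SE, adjusted p = 0.251 over all probes kept) against SiC and 1.18 ± 0.27 (SE, adjusted p = 0.0142 over all probes kept) against Si1AK.

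Among the other genes of ISG15 conjugation, Trim25, the ubiquitin ligase that activates RIG-I and also takes ISG15, rose in Si2AK. It measured 5.15, 5.26, 5.01 and 5.22 in NT, 4.67, 5.14 and 5.31 in SiC, 4.94, 5.01, 5.16 and 5.22 in Si1AK and 5.45, 5.72 and 5.71 in Si2AK. All Si2AK arrays lay above all others. The difference from SiC was 0.59 ± 0.15 (SE, adjusted p = 0.0255) and that from Si1AK 0.55 ± 0.14 (SE, adjusted p = 0.027), but without SiC replicate 1 the former was 0.41 (adjusted p = 0.0525), and without Si2AK replicates 2 or 3 it was 0.54 and 0.55 (0.0809 and 0.0782). The comparison with Si1AK was lost without Si1AK replicates 1, 2 or 3 or Si2AK replicates 2 or 3 (0.50 to 0.57, adjusted p between 0.0503 and 0.104). Leaving out SiC replicate 1 and Si2AK replicate 2 together gave 0.36 against SiC (adjusted p = 0.129). The other Trim25 probe, also well above background on all arrays, gave 0.18 ± 0.12 (SE, adjusted p = 0.433 over all probes kept) against SiC. In Si2AK it gave 0.086 ± 0.11 (SE, adjusted p = 0.709) against Si1AK and -0.001 ± 0.11 (SE, adjusted p = 0.997) against NT. With the probes averaged, the differences of Si2AK from SiC, Si1AK and NT were 0.39, 0.32 and 0.23. None was called (adjusted p = 0.0791, 0.132 and 0.27). The probe used holds a run of 31 alternating G and T bases among its 60, and the other a run of 5.

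Usp18, the protease that removes ISG15 and dampens the receptor, was well above background on 7 of 14 arrays, including all 4 of Si1AK, and it passed the filter only through that group. Levels were -5.27, -5.99, -5.19 and -5.89 in NT, -4.04, -7.08 and -5.68 in SiC, -1.03, -4.15, -4.40 and -4.50 in Si1AK and -5.49, -4.98 and -4.70 in Si2AK. Si1AK replicate 1 stood far above the other 3 Si1AK arrays, and Usp18 was not called against SiC, with 2.08 ± 0.84 (SE, adjusted p = 0.206). Herc6, the ligase that attaches ISG15 in mice, was between -1.78 and -0.98. Its Si2AK arrays lay below all SiC arrays, with -0.36 ± 0.13 (SE, adjusted p = 0.0954).

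Of the tetratricopeptide repeat genes, Ifit1, whose values are given above, rose in Si2AK. It differed by 0.82 ± 0.22 (SE, adjusted p = 0.0279) from SiC and by 0.81 ± 0.20 (SE, adjusted p = 0.0217) from Si1AK, while Si1AK against SiC was 0.0099 ± 0.20 (SE, adjusted p = 0.983). Against NT it rose in both, by 1.11 ± 0.19 (SE, adjusted p = 0.00476) in Si1AK and 1.92 ± 0.20 (SE, adjusted p = 0.000134) in Si2AK. The Si2AK call against SiC was lost without SiC replicates 2 or 3 or any Si2AK array (0.72 to 0.89, adjusted p between 0.0545 and 0.0934), and it was 0.35 on slide 1 and 1.21 on slide 2. Against Si1AK it was lost without Si1AK replicate 3 or Si2AK replicates 2 or 3 (0.70 to 0.85, adjusted p between 0.056 and 0.0914). Neither call was made after quantile normalization (1.66 from SiC and 0.47 from Si1AK, adjusted p = 0.114 and 0.675) or in the authors' deposited table (0.98 and 0.39, adjusted p = 0.0592 and 0.466). The rise of Si1AK over NT was not called with normexp background correction (0.36, adjusted p = 0.081). Nor was it called after quantile normalization (1.39, adjusted p = 0.165) or in the authors' deposited table (0.75, adjusted p = 0.122). The rise of Si2AK over NT was not called after quantile normalization (1.855, adjusted p = 0.0526). Ifit1, Ifit2 and Ifit3 are related in sequence, and cross-binding of their probes is uncertain. Ifit2 was between -4.15 and -1.54, highest on SiC replicate 1, and was not called. Ifit3 was well above background on none of 4 NT and all 4 Si1AK arrays, and like Tlr3 it passed the filter only through Si1AK. Its levels are therefore given as a description. By the bound used for Tlr3 the Si1AK mean was at least 1.52-fold above the NT mean. The difference was not called (1.29 ± 0.81, SE, adjusted p = 0.405).

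The dynamin-like GTPase Mx1, an antiviral protein that acts in the nucleus in mice, had the largest fall of any member. Its probe lies at chr16:97668644-97668703. Its levels were -2.62, -2.52, -1.92 and -1.78 in NT, -2.53, -2.19 and -2.27 in SiC, -2.61, -2.3, -2.31 and -2.31 in Si1AK and -3.84, -3.95 and -3.60 in Si2AK. The Si2AK arrays lay below all others, and NT, SiC and Si1AK overlapped. Mx1 was 2.76-fold lower in Si2AK than in SiC, a difference of -1.46 ± 0.21 (SE, adjusted p = 0.00122), and the difference from Si1AK was -1.41 ± 0.20 (SE, adjusted p = 0.000769). Si1AK against SiC was -0.051 ± 0.20 (SE, adjusted p = 0.901). Within slides it was -1.37 and -1.36 against SiC, each with 1 array on a side. Both calls held with any single array left out. Neither was made after quantile normalization (-0.99 from SiC and -2.09 from Si1AK, adjusted p = 0.591 and 0.154) or in the authors' deposited table (-0.65 and -1.18, adjusted p = 0.435 and 0.0933). Mx2, its close relative in the cytoplasm, was -0.26 on SiC replicate 1 and between -3.84 and -2.22 elsewhere, and was not called.

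Gbp3 fell in Si2AK against SiC. The arrays read -3.57, -3.64, -3.29 and -3.24 in NT, -2.62, -3.04 and -3.23 in SiC, -2.90, -2.92, -2.93 and -3.28 in Si1AK and -3.61, -3.63 and -3.53 in Si2AK. The Si2AK arrays lay below SiC and Si1AK but within the range of NT, which was itself below SiC. Gbp3 differed by -0.63 ± 0.17 (SE, adjusted p = 0.0279) from SiC, by -0.59 ± 0.16 (SE, adjusted p = 0.0289) from Si1AK and by -0.15 ± 0.16 (SE, adjusted p = 0.613) from NT. Without SiC replicate 1 the difference from SiC was -0.46 (adjusted p = 0.0737), and without SiC replicate 2 or any Si2AK array it was -0.67 to -0.61 (adjusted p between 0.0514 and 0.0824). After quantile normalization it was -0.057 and in the authors' deposited table -0.12, neither called. The call against Si1AK was lost without Si1AK replicates 1, 2 or 3 or any Si2AK array (-0.62 to -0.55, adjusted p between 0.0638 and 0.0947). It was also lost after quantile normalization (-1.24, adjusted p = 0.33), in the authors' deposited table (-0.63, adjusted p = 0.244) and with normexp background correction (-0.34, adjusted p = 0.0707). Gbp2 was between -1.20 and -0.55 and was not called. Guanylate-binding proteins are alike in sequence, so cross-binding is uncertain for them too.

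**Figure D3:**
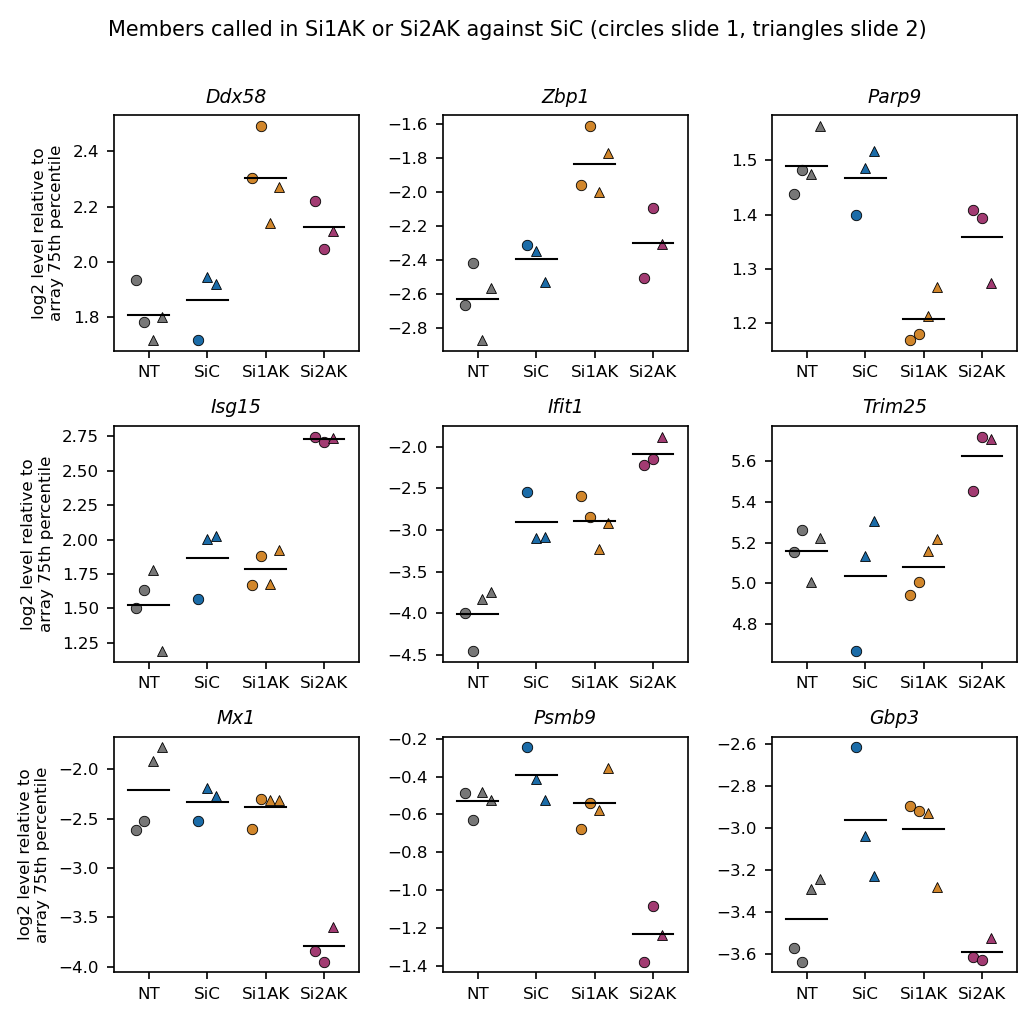
Levels (log2, relative to the 75th percentile of each array) of the 9 members called in Si1AK or Si2AK against SiC, 1 panel per gene, with 1 point per array (circles slide 1, triangles slide 2) and a line at the group mean. Ddx58, Zbp1 and Parp9 separate Si1AK from SiC, and Isg15, Ifit1, Trim25, Mx1, Psmb9 and Gbp3 separate Si2AK from SiC.

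Among the genes of antigen processing, Psmb9, a catalytic subunit of the immunoproteasome, fell in Si2AK. Its probe lies at chr17:34319174-34319233. It measured -0.49, -0.63, -0.48 and -0.53 in NT, -0.25, -0.41 and -0.52 in SiC, -0.68, -0.54, -0.58 and -0.35 in Si1AK and -1.38, -1.08 and -1.24 in Si2AK. Every Si2AK array lay below all other arrays, which overlapped. The difference was -0.84 ± 0.11 (SE, adjusted p = 0.00066) from SiC and -0.69 ± 0.10 (SE, adjusted p = 0.000959) from Si1AK. No single array left out ended either call. With only the compared groups in the fit, the difference from SiC was not called (adjusted p = 0.0795). Within slides it was -0.98 and -0.77 against SiC (adjusted p = 0.0589 and 0.0797). Tap1, a subunit of the peptide transporter and the neighbour with which Psmb9 shares its promoter region, was lower in Si2AK than in Si1AK. Levels were -2.63, -3.05, -3.0 and -3.22 in NT, -1.86, -2.70 and -2.93 in SiC, -2.13, -2.21, -2.17 and -2.17 in Si1AK and -3.55, -2.80 and -3.41 in Si2AK. Si1AK lay above Si2AK without overlap, and SiC overlapped both. The difference was -1.09 ± 0.25 (SE, adjusted p = 0.0129) between the siRNAs and -0.76 ± 0.26 (SE, adjusted p = 0.0833) between Si2AK and SiC. The first was lost without Si2AK replicates 1 or 3 (-0.94 and -1.01, adjusted p = 0.0598 and 0.054). Without both arrays of raised signal, Tap1 was called in both siRNAs against SiC, in opposite directions. Psmb8, another immunoproteasome subunit, was between -2.07 and -1.03 and was not called.

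Of the poly(ADP-ribose) polymerases and their partner, Parp9, which forms a complex with the ligase Dtx3l, fell in Si1AK. Its levels were 1.44, 1.48, 1.48 and 1.56 in NT, 1.40, 1.49 and 1.52 in SiC, 1.17, 1.18, 1.21 and 1.27 in Si1AK and 1.41, 1.39 and 1.27 in Si2AK. The Si1AK arrays lay just below all others. The difference from SiC was -0.26 ± 0.066 (SE, adjusted p = 0.0485) and that from NT -0.28 ± 0.061 (SE, adjusted p = 0.0169). The call against SiC was lost when any array but SiC replicate 1 was left out (-0.28 to -0.24, adjusted p between 0.0515 and 0.141), and the one against NT without Si1AK replicates 1 or 2 (-0.27 each). With its probes averaged, Parp9 differed from SiC by -0.82 (adjusted p = 0.273). Parp14, a mono-ADP-ribosyltransferase, was between 1.03 and 1.15 in Si1AK and between 0.55 and 0.82 in Si2AK, a difference of -0.38 ± 0.10 (SE, adjusted p = 0.0269). That call was lost without any of the Si1AK arrays or Si2AK replicates 1 or 2 (-0.40 to -0.30, adjusted p between 0.0528 and 0.125). Parp12 was between -0.06 and 0.49 and Dtx3l between 0.52 and 1.18, and neither was called.

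Of the remaining antiviral effectors, Samd9l, a restriction factor that blocks translation, differed between the siRNAs. The arrays read 0.30, 0.58, 0.60 and 0.92 in NT, 0.46, 0.98 and 1.05 in SiC, 1.05, 1.0, 1.56 and 1.39 in Si1AK and 0.04, -0.52 and 0.73 in Si2AK. Si1AK lay above Si2AK without overlap. The difference was -1.17 ± 0.27 (SE, adjusted p = 0.0146). It was -0.87 without Si2AK replicate 2 (adjusted p = 0.0626), the lowest array and also an array of raised signal. Without Si2AK replicate 1 it was -1.15 (adjusted p = 0.05). On slide 1 it was -1.27 and not called (adjusted p = 0.0826), and on slide 2, with 1 Si2AK array, it was -0.75. The second Samd9l probe gave -1.17 ± 0.26 (SE, adjusted p = 0.0134 over all probes kept). Rtp4 and Xaf1, a chaperone-like protein and an antagonist of an inhibitor of apoptosis, rose in Si1AK against NT, by 0.45 ± 0.12 (SE, adjusted p = 0.0498) and 0.55 ± 0.11 (SE, adjusted p = 0.0131). No array left out singly ended the Xaf1 call, whereas that of Rtp4 was lost without any of 10 arrays (0.38 to 0.49, adjusted p between 0.0501 and 0.141). Neither was called against SiC. Bst2 (tetherin, which holds budding virus at the cell surface) was between -1.41 and -1.13 in Si2AK, below all Si1AK and SiC arrays, with -0.45 ± 0.18 (SE, adjusted p = 0.148). Ifi35, which binds the transcriptional regulator Nmi, was between 1.23 and 1.72 and was not called.

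**Figure D4:**
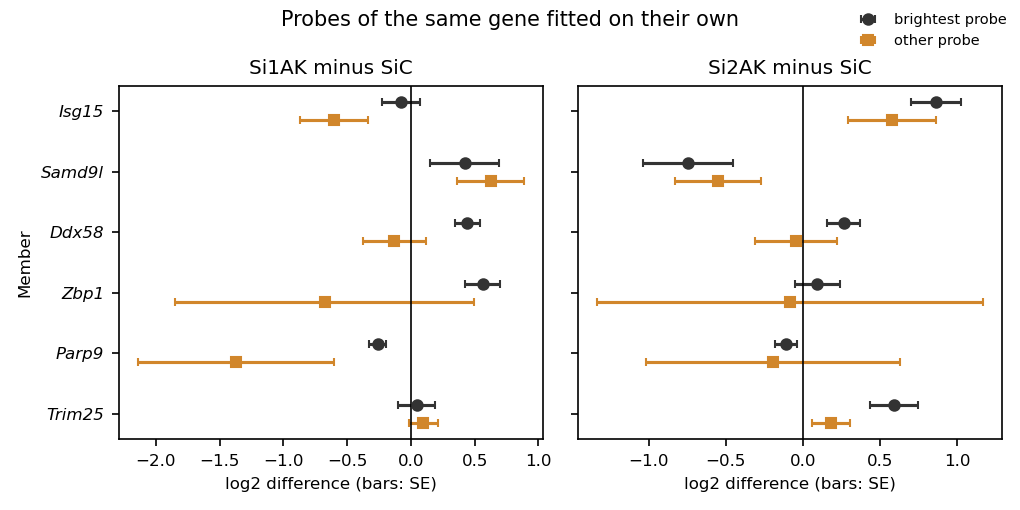
Log2 difference with its SE (horizontal axis) for the brightest probe (circles) and the other probe (squares) of 6 members, each probe fitted on its own, in Si1AK minus SiC (left) and Si2AK minus SiC (right). The probes of Samd9l lie close together, and those of Ddx58 and Zbp1 have opposite signs in Si1AK minus SiC.

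The 3 members that failed the filter were Rsad2 (viperin, which makes a chain-terminating nucleotide), its neighbour Cmpk2 (a mitochondrial nucleotide kinase) and Ifi44. Rsad2 and Cmpk2 were well above background only on SiC replicate 1 and Si2AK replicate 2, the arrays of raised signal. Rsad2 was -2.12 and -3.57 there and between -7.67 and -5.42 elsewhere. Cmpk2 was -2.78 and -3.54 there and between -8.11 and -6.51 elsewhere. Ifi44 was well above background on 5 of 14 arrays and between -7.34 and -0.98.

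Against NT, differences combine the siRNA with the transfection. Of the 33 members, 7 were called in Si1AK (6 higher, background 4.03%, and 1 lower, background 3.04%, or 7.08% in all). In Si2AK, 6 were called (4 higher, background 7.98%, and 2 lower, background 7.7%, or 15.7% in all). The Si1AK calls were Ifit1, Zbp1, Xaf1, Ddx58, Rtp4 and Irf9 higher and Parp9 lower, and the Si2AK calls were Ifit1, Isg15, Trim25 and Ddx58 higher and Mx1 and Psmb9 lower. Si1AK arrays lay wholly above NT for 13 members (9.15% of all genes) and wholly below for 1 (12.2%), and Si2AK arrays wholly above for 6 (14%) and wholly below for 3 (12.7%). The 13 include Usp18 and Ifit3, which passed the filter only through Si1AK. The Si1AK count was 11 without SiC replicate 1, which enters only through the shared spread, and 4 without Si1AK replicate 1 or 2. Without both arrays of raised signal it was 14, with the added calls Ifit3, Ifih1, Eif2ak2, Parp14, Samd9l, Tap1 and Gbp3. Mx1 fell in Si2AK by 1.59 on the log2 scale and Psmb9 by 0.70, and both calls held with any single array left out, though that of Mx1 was not made after quantile normalization (-2.07, adjusted p = 0.138) or in the authors' deposited table (-1.19, adjusted p = 0.0771). In Si2AK the Ddx58 and Trim25 calls against NT were each lost with any of 10 and of 12 arrays left out (0.27 to 0.55, adjusted p between 0.0506 and 0.172).

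The rest of the pathway was described through 9 lists of 155 genes, of which 131 were tested: ligands, receptors and their kinases, transcription factors, sensors and adaptors, feedback inhibitors, oligoadenylate synthetases, other effectors, induced GTPases and antigen presentation. In SiC against NT none of the 131 was called. In Si1AK against SiC, 4 rose and 0 fell, where 3.18% and 1.22% of all genes were called higher and lower. In Si2AK against SiC, 8 rose and 12 fell, where the shares of all genes were 8.54% and 4.68%. In Si2AK against Si1AK, 7 were higher and 21 lower, against 6.33% and 6.15%. The counts of higher genes were thus near or below those shares in these 3 comparisons, and the counts of lower genes were above them in both that involve Si2AK. The lists were chosen with earlier results of these data known, so such an excess may reflect the choice. The medians of the 131 were 0.028, -0.020 and -0.031, against -0.060, -0.019 and 0.096 over all genes.

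Ifnb1, the gene of interferon beta, was well above background on 2 of 14 arrays and was not tested, and none of the 4 ligands tested was called. The receptor genes Ifnar1 and Ifnar2, the kinases Jak1 and Tyk2, the factors Stat3 and Irf3 and the adaptor Mavs were not called in either siRNA against SiC.

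Outside the members, the siRNAs differed in sensors and enzymes of the pathway. Tmem173 (STING, the adaptor of cytosolic DNA sensing) had group means of 0.79 ± 0.12 in NT, 0.70 ± 0.0042 in SiC, 1.45 ± 0.088 in Si1AK and -0.19 ± 0.11 in Si2AK (SD). Its spot had no value on SiC replicate 1, so the SiC mean rests on 2 arrays. It rose in Si1AK and fell in Si2AK against SiC (0.75 ± 0.10, SE, adjusted p = 0.00266 and -0.89 ± 0.11, SE, adjusted p = 0.000601), and the difference between them was -1.64 ± 0.089, SE, adjusted p = 3.61e-06. No single array left out ended these calls, but without SiC replicate 2 or 3 the SiC side is 1 array, assumed to vary like the other groups. Oas1a, which makes the messenger that activates the nuclease RNase L, had means of 0.55 ± 0.10 in NT, 0.53 ± 0.18 in SiC, 1.58 ± 0.14 in Si1AK and -0.25 ± 0.16 in Si2AK (SD), and it too rose in Si1AK and fell in Si2AK (1.05 ± 0.11, SE, adjusted p = 0.000385 and -0.78 ± 0.12, SE, adjusted p = 0.00178). Its relative Oasl1, which restrains translation of Irf7, went the other way and rose in Si2AK, with 1.11 ± 0.13, SE, adjusted p = 0.000432. With only the compared groups in the fit, Tmem173, Oas1a and Oasl1 were not called in Si2AK against SiC (adjusted p = 0.0878, 0.0998 and 0.076). Of the other family members tested, Oas1c fell in Si2AK (-0.64 ± 0.17, SE, adjusted p = 0.0264), a call lost without SiC replicate 1 (-0.46, adjusted p = 0.0667) or Si2AK replicates 1 or 3 (-0.57 and -0.55). Oas1b, Oas2, Oas3 and Oasl2 were not called against SiC. Oasl2 was lower in Si2AK than in Si1AK (-0.77 ± 0.15, SE, adjusted p = 0.00481) and rose in Si1AK against NT (1.13 ± 0.14, SE, adjusted p = 0.000627), and neither call was made after quantile normalization (-1.03 and 1.26, adjusted p = 0.289 and 0.182) or in the authors' deposited table (-0.74 and 0.89, adjusted p = 0.14 and 0.073).

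In Si1AK against SiC the other called genes of the lists were Pycard, the adaptor of inflammasomes, and Lgals9, a galectin (0.75 ± 0.11, SE, adjusted p = 0.00288 and 1.02 ± 0.11, SE, adjusted p = 0.000363). In Si2AK the adaptor of TLR3, Ticam1, rose (0.79 ± 0.14, SE, adjusted p = 0.00413), and the phosphatase Ptpn6, which damps cytokine receptors, fell (-1.11 ± 0.21, SE, adjusted p = 0.00524). Phf11d fell as well (-0.92 ± 0.16, SE, adjusted p = 0.00314). Of the 10 feedback inhibitors tested, Tnfaip3 was called higher and only Ptpn6 lower. Of the 46 other effectors tested, 4 were called higher, Tor3a among them, and 6 lower. The shares of all genes were 8.54% and 4.68%. Without Si2AK replicate 3 neither Tnfaip3 nor Tor3a was called (adjusted p = 0.0707 and 0.0513). The Tnfaip3 call was also lost without SiC replicates 1 or 2. The calls of Pycard, Lgals9, Ticam1, Ptpn6 and Phf11d held with each single array left out. With only the compared groups in the fit, those of Ticam1, Ptpn6 and Phf11d were not made (adjusted p = 0.13, 0.154 and 0.0863). The RNA-editing enzyme Adar was not called against SiC in either siRNA, with -0.24 ± 0.076, SE, adjusted p = 0.0638 in Si2AK. It was called lower in Si2AK against Si1AK (-0.24 ± 0.071, SE, adjusted p = 0.0445) and against NT (-0.25 ± 0.071, SE, adjusted p = 0.0363). The first call was lost with any of 12 arrays left out (-0.28 to -0.21, adjusted p between 0.0521 and 0.172) and the second with any of 8 (-0.28 to -0.21, adjusted p between 0.051 and 0.141). With its probes averaged the differences were -0.10 and 0.059, neither called. Among the antigen presentation genes, Tapbpl, a peptide editor of class I molecules, was the only 1 of 17 tested that was called in Si2AK against SiC (0.43 ± 0.091, SE, adjusted p = 0.00996), a smaller share than the 13.2% of all genes.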

How the data were processed

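Total RNA from 14 samples was hybridised to 1-colour Agilent arrays (0.2 µg of RNA at a RIN of 9, 600 ng hybridised, per the labels' protocols). Per the file headers, the deposited scanner files hold spot intensity from Agilent Feature Extraction 10.7.3.1, with other marks for spots well above background, outliers and saturation, and probe positions on mm9. The deposited value table of the authors holds log2 values of the same arrays. Its column medians lay near 6.5, each column correlated best with its own array's scanner signal (14 of 14 arrays), and its exact normalization is not given in the sources used here. It was used only as an alternative.

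Processed intensity was scaled to the 75th percentile of each array and log2 transformed. Control spots and outlier spots were left out, and spots of a probe were averaged. A probe was kept (30299 of 55681) if all arrays of 1 or more groups had it well above background, and the brightest one represented a gene. Group means were fitted on all 14 arrays (10 residual degrees of freedom) with lmFit and eBayes in limma 3.58.1 (R 4.3.3), with Benjamini-Hochberg adjustment over 21300 genes. The number of arrays limits the precision. The procedure was also run on simulated data, and no result of that run is given here. All members could be named, with at most the 3 called genes of largest difference from each pathway list, and Stat3, Irf3, Mavs, Ifnb1, Ifnar1, Ifnar2, Jak1, Tyk2, Adar and the Oas genes whatever their values. Some items are not reported here. The members and lists were chosen with earlier results of these data known. Alternatives covered the background correction, normalization, filter, slide, replicate number, probe choice, array weights and single arrays.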

Additional observations from a re-analysis of the deposited data

Results flagged for a closer look

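In 66 groups of 4 arrays, 6 had an array far from the other 3 by Dixon's criterion, which chance meets in about 1 group in 20. Usp18, the ISG15 protease, was -1.03 on Si1AK replicate 1 and between -4.50 and -4.15 on the other Si1AK arrays. Mx1 was -2.61 on Si1AK replicate 1, against -2.31 to -2.30. Xaf1 was -0.65 on Si1AK replicate 2, against -0.91 to -0.87. Eif2ak2 was 0.96 on Si1AK replicate 2, against 1.39 to 1.44. Gbp3 was -3.28 on Si1AK replicate 4, against -2.93 to -2.90. Tlr3 was -6.64 on NT replicate 4, against -5.29 to -5.20, and 1 of the 4 NT arrays was well above background for it.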

How the results depend on the processing

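Against the 3 members called in Si1AK minus SiC, the count was 1 with normexp background correction and 5 in the authors' deposited table. The count was 0 with no filter, 0 on slide 2 and 0 with only the compared groups. The count did not hold on slide 1 either, where SiC is 1 array. It was 1 with the replicate number as a block, 0 with probes averaged and 8 with array weights. For Si2AK minus SiC (6), it was 3 with no filter, 3 on slide 1, 1 on slide 2, 1 with only the compared groups and 13 with weights. For Si2AK minus Si1AK (11), it was 5 with no filter, 2 on slide 1 and 3 on slide 2. For Si1AK minus NT (7), it was 3 with normexp, 4 with no filter, 0 on each slide, 11 with only the compared groups, 3 with probes averaged, 13 with weights and 14 without both arrays of raised signal. For Si2AK minus NT (6), it was 3 on slide 1 and 2 on slide 2. SiC minus NT stayed at 0 throughout. A similar count can hold different members. After quantile normalization Si1AK minus NT also had 7, of which 3 were among the calls above, with Ifit1, Irf9, Rtp4 and Zbp1 lost. Si2AK minus Si1AK had 10, of which 7 were among the calls above, with Mx1, Ifit1, Zbp1 and Gbp3 lost. Si2AK minus NT had 6, of which 4 were among the calls above, with Mx1 and Ifit1 lost. No filter means more genes tested, and 1 slide or only the compared groups means fewer arrays. The causes of the changed counts were not tested. With 1 array left out the counts ranged from 0 to 2, 4 to 7, 5 to 11, 4 to 11 and 4 to 7, in that order. The slide as a block gave 3, 9, 12, 10 and 7. Zbp1 changed sign with probes averaged, to -0.058 in Si1AK minus SiC and 0.063 in Si2AK minus Si1AK, and so did Adar in Si2AK minus NT, to 0.059. Whether the replicate numbers pair the samples was not settled. Over 19 same-numbered pairs the correlation of deviations was -0.679 to 0.722 (median 0.176, 12 pairs over 0.1). Over 54 pairs of different number it was -0.844 to 0.873 (median -0.0328, 20 pairs over 0.1). Most same-numbered pairs also shared a slide, so number and slide cannot be fully told apart. The replicate block gave 1, 5, 10, 5 and 5 calls. Dim members near the background, such as Tlr3, Ifit3 and Usp18, were measured least well.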
